A study of Mus musculus with 6 samples.

Results

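ATP-binding cassette (ABC) genes were followed in cultured mouse hepatocytes given tumour necrosis factor alpha (TNFα), an inflammatory cytokine. Members were all genes whose symbol in the array's probe annotation began with Abca, Abcb, Abcc, Abcd, Abce, Abcf or Abcg followed by a number, which gave 48 of the 19057 genes with a probe of their own, on 105 probes. Of these, 40 had a probe bright enough to be tested, among 13438 genes tested in all. By where the proteins are known to sit in hepatocytes, 8 members were canalicular, 6 basolateral, 10 in intracellular membranes and 4 soluble. The other 20 were unassigned. Abce1, Abcf1, Abcf2 and Abcf3 have no membrane domains and transport nothing, so the family name covers more than transporters. The peptide transporter genes Tap1 and Tap2 and the chloride channel gene Cftr belong to the same protein family but carry other names, and were followed separately.

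ABC proteins use the energy of ATP to move substrates across membranes. In the hepatocyte, canalicular members secrete bile salts, phospholipid, sterols, conjugated bilirubin and drugs into bile, while basolateral members return conjugates and bile acids to blood. Members in mitochondria, peroxisomes and lysosomes carry haem precursors, fatty acyl-CoA, vitamins and lipids inside the cell.

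RNA of primary liver cells from male C57Bl/6J mice was measured on 6 Illumina arrays, with 2 arrays each of untreated cells, cells given recombinant murine TNFα at 2 ng/mL for 2 hours, and cells given that dose for 2 days. All groups shared collagen-coated plates and Williams' E medium with fetal calf serum, antibiotics, dexamethasone and insulin. The labels name no separate animals or cultures behind the replicates, so a p-value here reflects array-to-array spread that may be technical. How long the untreated cells were cultured is not labelled. At 2 days the effects of TNFα and of longer culture cannot be told apart, and a difference in culture time may also enter at 2 hours. Intensities are the deposited linear values, whose median was 143.16 to 143.22 on every array. The lowest value was 96.54, so background is still in them and changes of dim probes are understated. Changes are log2 differences between group means from limma, with the standard error (SE), and a call means a p under 0.05 after Benjamini-Hochberg adjustment over all 13438 genes.

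Over the tested genes the correlation between arrays was 0.995 to 0.996 within groups and 0.982 to 0.991 across groups. Among markers of hepatocytes, Apoa1 and Ttr lay between 21974 and 42029 on all arrays, but the probe of albumin, Alb, stayed between 144.6 and 174, near the array median. At 2 days 0 of 7 tested hepatocyte markers were higher and 3 were lower by limma. The 3 were Cps1 (log2 change -3.10), Asgr1 (-1.605) and Apoa1 (-0.82). From untreated cells to 2 days their mean intensities went from 13588 to 1573, from 4368 to 1430 and from 41566 to 23578. The summed intensity of the 8 listed markers was 54278 to 57455 at 2 days, against 93028 to 96706 in untreated cells. The sums given next likewise take every listed marker on the array. Beside the marker counts, limma called 6.74% of all genes higher and 5.92% lower at 2 days. At 2 hours these shares were 1.76% and 1.06%. Of 8 tested macrophage markers, of 12 listed, 3 were higher at 2 days (C1qa, C1qb and C1qc), with sums of 1960 to 2144 against 1762 to 1805 in untreated cells, and Clec4f, Cd5l and Ptprc did not pass the filter. Of 5 tested stellate cell markers, of 9 listed, 1 was higher (Acta2) and 1 lower (Reln), with sums of 3301 to 4077 against 2686 to 3176, while Pdgfrb, Col3a1, Lrat and Rgs5 did not pass. Acta2 alone held 2107 and 2906 of these sums at 2 days, against 1343 and 1812 in untreated cells. Of 8 endothelial markers, all tested, 1 was higher (Oit3) and 1 lower (Stab2), with sums of 1528 to 1544 against 1480 to 1598. Of 4 tested bile duct markers, of 7 listed, 2 were higher (Sox9 and Krt23), with sums of 3794 to 4130 against 1706 to 1741, and Epcam did not pass. Sox9 alone held 2796 and 3027 at 2 days, against 852 and 842 in untreated cells, while Krt7 and Krt19 were not called. At 2 hours 1 stellate marker (Reln) and 1 bile duct marker (Sox9) were higher, the bile duct sums being 2383 to 2413 against 1706 to 1741 in untreated cells. Their part in the changes described next was not tested. Fewer cells of a type and less RNA per cell cannot be told apart in such arrays.

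Within 2 hours only canalicular genes were called, as the plot of changes by member shows. Abcg5 and Abcb1b rose and Abcb4 fell, each by less than 1.5-fold. These were 3 of 40 tested members, or 7.5%, against 2.82% of all genes tested. Of the basolateral, intracellular, soluble and unassigned members 0 of 5, 10, 4 and 15 were called by limma, and each class had 0 at an unadjusted p under 0.05. With so few genes a class, 0 calls is close to the 2.82% over all genes. A difference between the classes was not tested. After normexp background correction limma called 0 members (6 at an unadjusted p under 0.05), and without replicate 2 of the 2 hour group it called 0 (3 at an unadjusted p under 0.05). Without untreated replicate 1 and without untreated replicate 2, 1 member each was called.

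After 2 days 8 of 40 tested members were called, or 20%, against 12.7% of all genes. Abcc4, Abcc2 and Abcb1b rose, while Abcg5, Abcb4, Abcb11, Abca8b and Abcd3 fell. Canalicular genes held 5 of these 8 calls, with 2 higher and 3 lower of 6 tested. Basolateral genes held 1 of 5, higher, intracellular genes 1 of 10 and unassigned genes 1 of 15, both lower, and limma called 0 of 4 soluble genes (0 at an unadjusted p under 0.05). The median log2 change was -0.24 over canalicular, 0.23 over basolateral, -0.07 over intracellular and -0.02 over soluble members, beside 0.01 over all genes tested. Single changes spanned -0.63 to 0.96 among canalicular, -0.19 to 1.03 among basolateral and -0.31 to 0.20 among intracellular members. The share of higher calls over all genes was 6.74% and of lower calls 5.92%. Without untreated replicate 1 and without replicate 1 of the 2 day group 5 members each were called, and after normexp 4, namely Abcc4, Abcc2, Abcb1b and Abcg5.

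**Figure D1:**
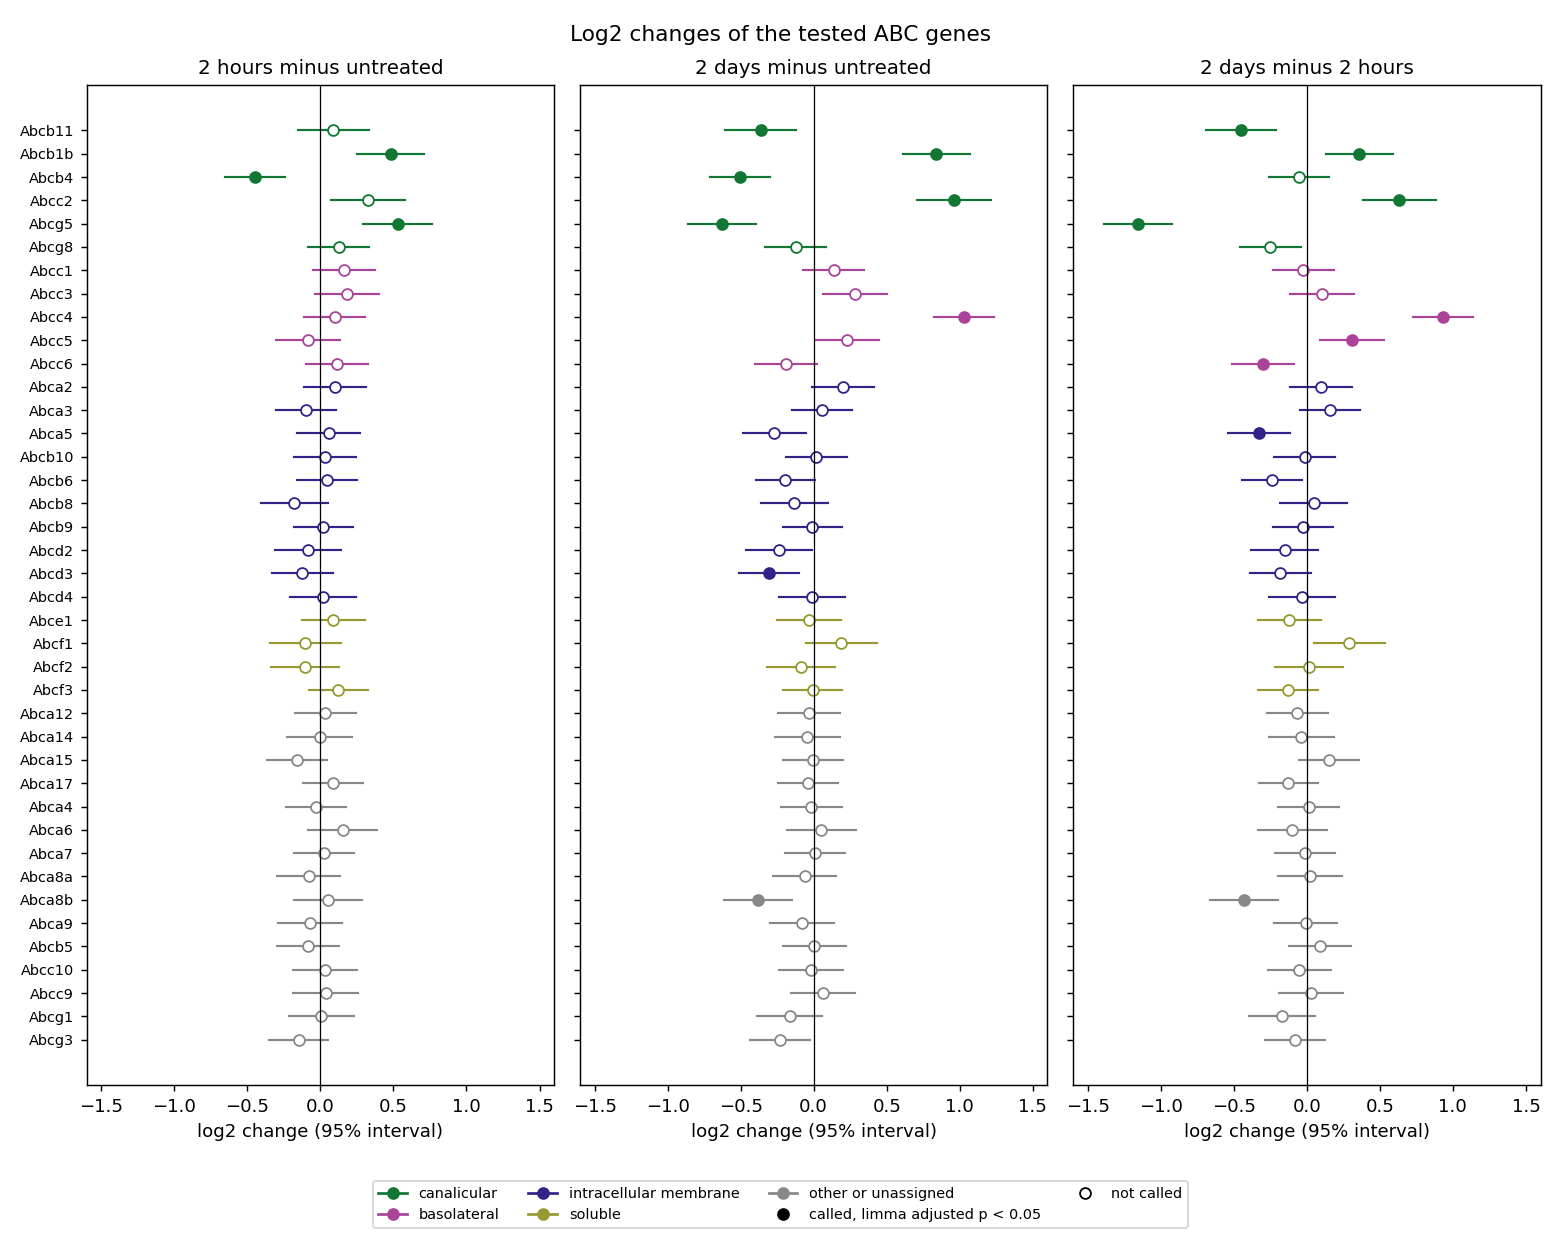
Log2 changes of the 40 tested ABC genes (horizontal axis, log2 scale) with 95% intervals from limma, for 2 hours minus untreated, 2 days minus untreated and 2 days minus 2 hours. Colours mark the known location of the protein and filled points the genes called. At 2 hours 3 canalicular genes are filled, and at 2 days the widest changes are those of Abcc4, Abcc2, Abcb1b and Abcg5.

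The arrays of compared groups did not overlap for 15 of 40 members at 2 hours against untreated, where all genes gave 40.4%. At 2 days against untreated they did not overlap for 21 members, against 49.6% of all genes. By this count the family was close to the rest of the array. The comparisons at 2 hours and at 2 days use the same untreated arrays, so their values are set side by side and not as independent results.

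Among canalicular members that rose, Abcc2 encodes the exporter of conjugated bilirubin and glutathione conjugates. Its intensities were 608 and 585 on the untreated arrays, 662 and 845 at 2 hours, and 1316 and 1024 at 2 days. The 2 day arrays lay above all others, and the 2 hour arrays lay between the other groups. The change at 2 days was 0.96 (SE 0.12, adjusted p = 2.22e-06 by limma), and at 2 hours 0.33 (95% interval 0.07 to 0.58), which was not called. A dimmer probe of Abcc2 also rose at 2 days, by 0.42, and gave 0.01 at 2 hours.

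Abcb1b, a mouse gene for a P-glycoprotein that exports lipophilic drugs, read 279 and 272 in untreated cells, 359.5 and 411 at 2 hours, and 546 and 446 at 2 days. No array of any group overlapped another group's. Its change was 0.48 at 2 hours (SE 0.11, adjusted p = 0.0115 by limma) and 0.84 at 2 days (SE 0.11, adjusted p = 3.56e-06 by limma). The 2 hour call was lost without untreated replicate 1 (0.50), without untreated replicate 2 (0.46) and without replicate 2 of the 2 hour group (0.38). The probe of the other P-glycoprotein gene, Abcb1a, lay between 111 and 149.96 and did not pass the filter.

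Abcg5 encodes the partner of the Abcg8 protein, and the pair secretes cholesterol and plant sterols into bile. Abcg5 intensities were 503 and 423 on the untreated arrays, 624 and 709 at 2 hours, and 273 and 325 at 2 days. It was the highest at 2 hours and the lowest at 2 days, with no overlap between groups. It rose by 0.53 at 2 hours (SE 0.11, adjusted p = 0.00615 by limma) and fell by 0.63 at 2 days (SE 0.11, adjusted p = 2.48e-04 by limma). Between the 2 times the difference was -1.16 (SE 0.11, adjusted p = 2.78e-08 by limma). The 2 hour rise was not called without untreated replicate 2 (0.40) or without replicate 2 of the 2 hour group (0.44).

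Abcg8 had 164 and 174 in untreated cells, 194 and 174 at 2 hours, and 155 and 155 at 2 days. These values are close to the array median, where changes are compressed. Its changes had the signs of those of Abcg5, at 0.13 (95% interval -0.08 to 0.34) and -0.12 (-0.33 to 0.09), and were not called. The difference between Abcg5 and Abcg8 was not tested. Both genes lie next to each other on chromosome 17, and RefSeq starts them in opposite directions 109 bases apart. That shared stretch is shown because a pair with common upstream sequence was read on probes of unequal brightness (GRCm38.p6, chr17:84683012-84683120, plus strand, the strand of Abcg8).
Abcg5-Abcg8: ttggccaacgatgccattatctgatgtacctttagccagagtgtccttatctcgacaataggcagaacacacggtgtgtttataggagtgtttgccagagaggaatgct

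Among canalicular members that fell, Abcb4 encodes the flippase that delivers phosphatidylcholine to bile. Its intensities were 1759 and 1684 on the untreated arrays, 1248 and 1273 at 2 hours, and 1159.8 and 1272 at 2 days. Both treated groups lay below the untreated arrays and overlapped each other. The change was -0.45 at 2 hours (SE 0.10, adjusted p = 0.00907 by limma) and -0.50 at 2 days (SE 0.10, adjusted p = 7.79e-04 by limma), with -0.05 between the times (95% interval -0.26 to 0.15). The 2 hour fall was not called without untreated replicate 1 (-0.42), nor without replicate 1 (-0.44) or replicate 2 (-0.46) of the 2 hour group, and after normexp neither fall was called (-0.48 and -0.54). Abcb1a, Abcb1b and Abcb4 are consecutive protein-coding genes on chromosome 5, so at both times the neighbours Abcb1b and Abcb4 were called in opposite directions.

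Abcb11, the bile salt export pump, read 222 and 188 in untreated cells, 199 and 237 at 2 hours, and 144 and 176 at 2 days. The 2 day arrays were the lowest, and the other groups overlapped. Its fall at 2 days was 0.36 on the log2 scale (change -0.36, SE 0.12, adjusted p = 0.0419 by limma), close to the threshold. That call was lost without untreated replicate 1 (-0.24), without replicate 1 of the 2 day group (-0.22), and also after normexp, where the change was -0.76. It was lost under 8 of 16 alternatives in all, the others being an offset of 16 before log2, no filter, the mean of probes, the compared groups alone and an adjusted p under 0.01. At 2 hours the change was 0.09 (95% interval -0.16 to 0.33). Abcg2, which exports drugs and urate, read between 101 and 131 and did not pass the filter.

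**Figure D2:**
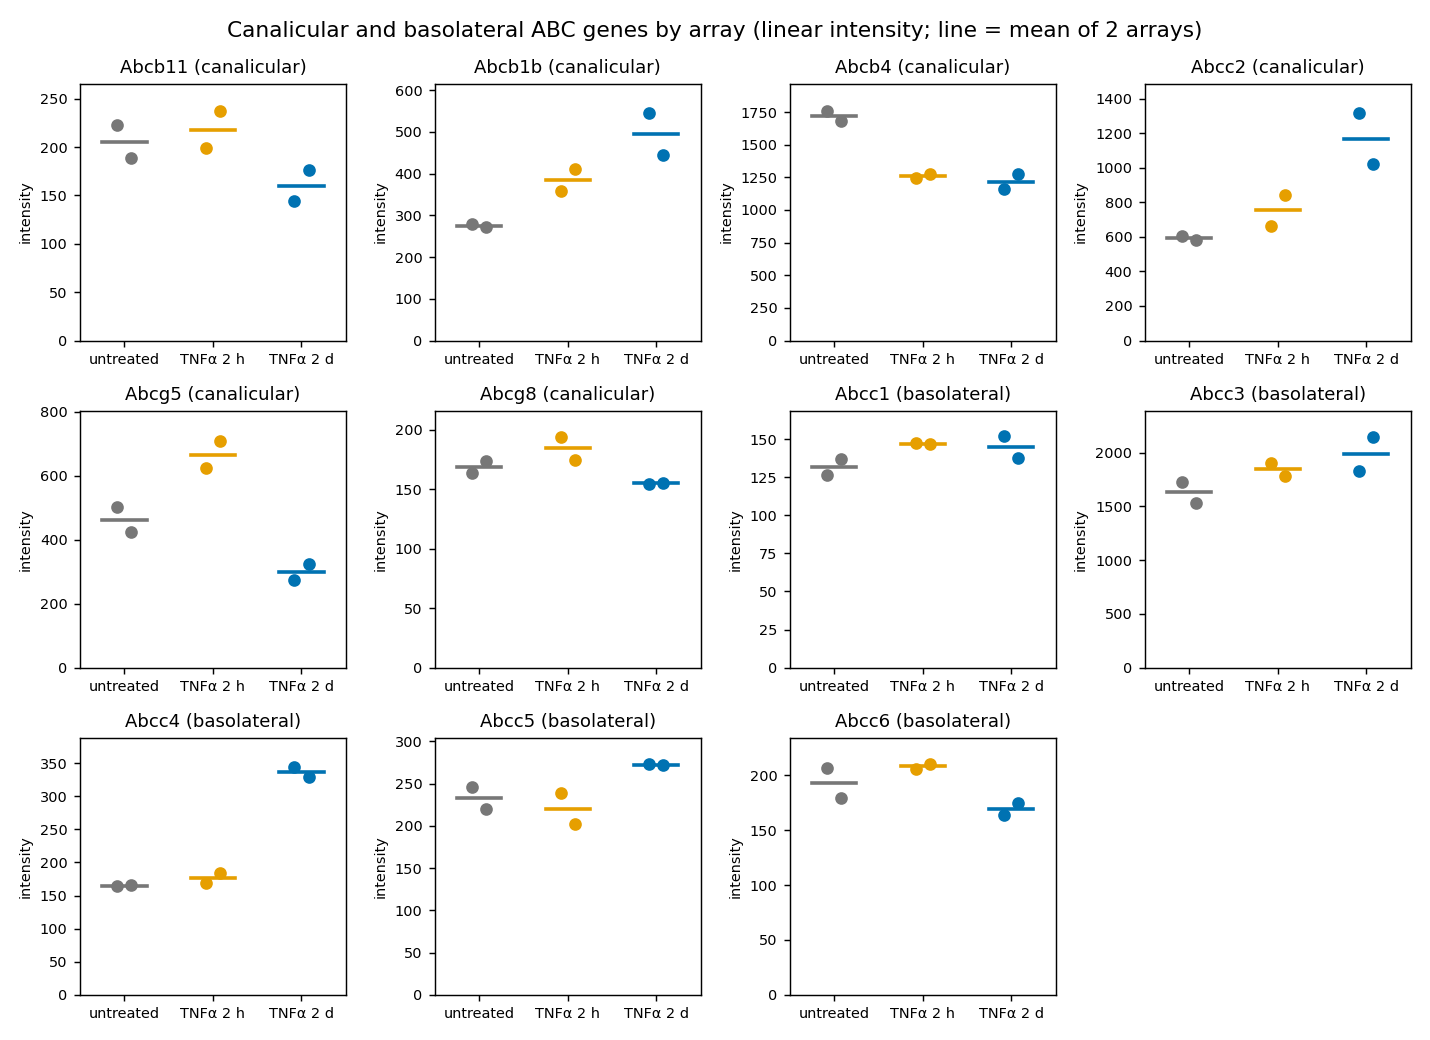
Deposited intensity (linear vertical axis from 0) of the 11 tested canalicular and basolateral ABC genes on each of the 6 arrays. Points are arrays and lines are means of 2 arrays for untreated cells, 2 hours and 2 days of TNFα. Abcc4 stays at 164 to 184 in untreated and 2 hour arrays and lies at 344 and 329 at 2 days, while Abcg5 is highest at 2 hours and lowest at 2 days.

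Of the basolateral genes Abcc4 changed most. Its protein exports bile acids together with glutathione, and cyclic nucleotides, to blood. Its intensities were 164 and 166 on the untreated arrays, 169 and 184 at 2 hours, and 344 and 329 at 2 days. The 2 day arrays stood apart from the other 4, which lay close together. Abcc4 rose 2.04-fold at 2 days (log2 change 1.03, SE 0.10, adjusted p = 2.74e-08 by limma), and the change at 2 hours was 0.10 (95% interval -0.11 to 0.30). Since the untreated level is near the array median, the fold is understated. After normexp the log2 change was 1.73.

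Abcc3 exports glucuronides and bile acids across the basolateral membrane. It read 1726 and 1535 in untreated cells, 1907 and 1784 at 2 hours, and 1830.3 and 2141 at 2 days. Every treated array was above both untreated arrays, but neither the change at 2 hours (0.18, 95% interval -0.04 to 0.40) nor that at 2 days (0.28, 0.06 to 0.50) was called.

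Abcc5, an exporter of cyclic nucleotides, had 246 and 220.4 in untreated cells, 239 and 202 at 2 hours, and 273 and 272 at 2 days. Its change was 0.23 at 2 days against untreated (95% interval 0.01 to 0.44, not called). Abcc6, needed for ATP release from hepatocytes, had 206 and 179 in untreated cells, 206 and 210.3 at 2 hours, and 163 and 174 at 2 days. Its change at 2 days was -0.19 (95% interval -0.40 to 0.03, not called). Abcc1, an exporter of glutathione conjugates, stayed between 126 and 152, around the array median, with changes of 0.16 at 2 hours and 0.14 at 2 days that were not called. Abca1, which loads cholesterol onto apolipoprotein A-I, lay between 115 and 131 and did not pass the filter.

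In intracellular membranes the only call against untreated cells was Abcd3, a peroxisomal carrier of branched-chain acyl-CoA and bile acid precursors. Its intensities were 4155 and 3842 in untreated cells, 3509 and 3823 at 2 hours, and 3279 and 3186 at 2 days. The 2 day arrays were the lowest, and the change was -0.31 (SE 0.10, adjusted p = 0.0465 by limma). In a fit of every probe on its own the same probe missed the threshold (adjusted p = 0.0519 by limma). Of its other 3 probes, 1 fell at 2 days (-0.35) and the others gave -0.27 and -0.03 and were not called. The call was lost without any single untreated or 2 day array (-0.36 to -0.25), after normexp (-0.31), with the mean of its probes (-0.24), with trended and robust variances (-0.31), with the replicate block (-0.31) and in a fit of the compared groups alone (-0.31).

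The lysosomal Abca5 had 256 and 236 in untreated cells, 257 and 255 at 2 hours, and 189 and 219.8 at 2 days, a change of -0.27 at 2 days that was not called. The other 8 intracellular genes (Abca2, Abca3, Abcb6, Abcb8, Abcb9, Abcb10, Abcd2 and Abcd4) changed by -0.18 to 0.10 at 2 hours and by -0.24 to 0.20 at 2 days, with none called. They include Abcb6, Abcb8 and Abcb10 of mitochondria and Abcd4, which takes part in the lysosomal handling of vitamin B12. The soluble genes, of which Abce1 recycles ribosomes and Abcf1 takes part in translation, changed by -0.10 to 0.12 at 2 hours and by -0.09 to 0.19 at 2 days.

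Among unassigned members only Abca8b was called against untreated cells. It read 347 and 266 in untreated cells, 308 and 322 at 2 hours, and 229.6 and 238 at 2 days. The change at 2 days was -0.38 (SE 0.11, adjusted p = 0.0256 by limma), but the untreated arrays were far apart, and without untreated replicate 1 it was -0.19 and not called. Nor was it called without replicate 1 (-0.35) or replicate 2 (-0.40) of the 2 day group. Its other probes gave -0.24 and 0.04 at 2 days and were not called. Abca8b, Abca8a, Abca9, Abca6 and Abca5 are consecutive protein-coding genes on chromosome 11, and at 2 days the change was -0.06 for Abca8a, -0.08 for Abca9 and 0.05 for Abca6. The other 14 unassigned genes tested lay between 122.9 and 293 on all arrays and changed by -0.16 to 0.15 at 2 hours and by -0.23 to 0.06 at 2 days. The 8 members without a passing probe were Abca1, Abca13, Abca16, Abcb1a, Abcc8, Abcc12, Abcg2 and Abcg4, whose brightest probes did not exceed 151.8 on any array. Of the 40 tested members 13 exceeded the array median on some arrays but not on all 6.

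Between the 2 times, 9 of 40 members were called, or 22.5%, against 15.3% of all genes. At 2 days Abcc4 (0.93, SE 0.10, adjusted p = 1.35e-07), Abcc2 (0.63, SE 0.12, adjusted p = 4.83e-04), Abcb1b and Abcc5 were higher than at 2 hours by limma. Abcg5, Abcb11 (-0.45, SE 0.12, adjusted p = 0.00843), Abca8b, Abca5 and Abcc6 were lower. Basolateral genes thus held 3 of these calls, canalicular genes 4, and limma called 0 of 4 soluble genes (1 at an unadjusted p under 0.05). The shares over all genes were 8.63% higher and 6.67% lower, and the arrays of the 2 times did not overlap for 22 of 40 members, against 52.8% of all genes. Without replicate 2 of the 2 hour group 4 of the 9 were called. Without replicate 1 of the 2 day group 3 of the 9 were called (Abcc4, Abcc2 and Abcg5), and so was the soluble Abcf1, named here after its values were seen (0.48, against 0.29 with all arrays, where it was not called). After normexp Abcc4 (1.53) and Abcg5 (-1.48) were called. Of single genes, leaving out replicate 2 of the 2 hour group ended the calls of Abcb11 (-0.33), Abca8b (-0.40), Abca5 (-0.33), Abcc5 (0.19) and Abcc6 (-0.29), and leaving out replicate 1 of the 2 day group those of Abcb11 (-0.30), Abcb1b (0.21), Abca8b (-0.41), Abca5 (-0.22), Abcc5 (0.31) and Abcc6 (-0.25). Without replicate 1 of the 2 hour group Abcb1b (0.26), Abca5 (-0.32) and Abcc6 (-0.32) were not called, nor Abcc5 (0.31) and Abcc6 (-0.35) without replicate 2 of the 2 day group.

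Promoter sequence is shown for the genes that rose most at 2 days, Abcc4, Abcc2 and Abcb1b, because all 3 rose then. RefSeq (GRCm38.p6) listed a start for 38 of the 48 members, and the 250 bases before it are given on the gene's strand, for Abcc4 before the more upstream of its 2 listed starts. Capitals mark matches to 3 short motifs or to the NF-κB consensus, searched on both strands: TGACNNNGC, the core of the antioxidant response element, TGANTCA, bound by AP-1, and AGGTCA, a core bound by nuclear receptors. TGACNNNGC and TGANTCA can share bases, and no 2 matches overlap here.
Abcc4 (chr14:118706220-118706469, minus strand): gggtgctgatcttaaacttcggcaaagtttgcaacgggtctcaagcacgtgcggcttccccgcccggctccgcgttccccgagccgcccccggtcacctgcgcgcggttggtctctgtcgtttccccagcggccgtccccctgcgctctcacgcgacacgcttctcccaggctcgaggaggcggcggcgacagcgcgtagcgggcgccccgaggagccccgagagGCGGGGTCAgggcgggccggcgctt
Abcc2 (chr19:43782058-43782307, plus strand): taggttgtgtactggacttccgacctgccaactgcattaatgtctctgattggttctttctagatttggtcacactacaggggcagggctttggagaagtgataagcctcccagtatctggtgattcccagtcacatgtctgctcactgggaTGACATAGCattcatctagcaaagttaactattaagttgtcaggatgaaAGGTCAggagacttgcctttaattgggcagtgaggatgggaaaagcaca
Abcb1b (chr5:8797897-8798146, plus strand): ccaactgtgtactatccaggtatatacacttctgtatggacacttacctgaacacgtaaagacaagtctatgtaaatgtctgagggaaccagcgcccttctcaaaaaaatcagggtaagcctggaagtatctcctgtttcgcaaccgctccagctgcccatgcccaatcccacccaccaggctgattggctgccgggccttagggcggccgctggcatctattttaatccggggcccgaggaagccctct

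Abcc4 and Abcc2 each held 1 match to TGACNNNGC, and Abcc2 also 1 to AGGTCA. Abcb1b and the stretch between Abcg5 and Abcg8 held none of the 4 motifs in these windows. Of 32817 windows of 250 bases before starts of all genes, 10.2% held TGACNNNGC, 6.8% TGANTCA, 14.0% AGGTCA and 7.2% the NF-κB consensus. In windows of 109 bases the shares were 5.2%, 3.0%, 6.4% and 3.3% in the same order. Among the 38 members with an entry, TGACNNNGC was present for 3, TGANTCA for 0, AGGTCA for 5 and the NF-κB consensus for 4. A member counted here if any of its listed windows of 250 bases held the motif, while the shares above are per window. A match in such a window is a description of the letters and not a binding site.

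Among other transport proteins of the hepatocyte membranes, limma called 0 of 14 tested at 2 hours (1 at an unadjusted p under 0.05). Over all genes the share was 2.82%, so 0 of 14 is close to it. Of the same 14, 2 fell and 1 rose at 2 days by limma, against 5.92% and 6.74% of all genes. At 2 days Slco2b1, an uptake carrier of organic anions, fell by 0.95 on the log2 scale (SE 0.13, adjusted p = 6.56e-06 by limma), and Slc47a1, an efflux carrier of organic cations, by 0.39. Slc4a2, the chloride and bicarbonate exchanger, rose (0.36). The bile salt uptake carrier Slc10a1 lay between 124 and 152, around the array median. Slc10a1 and Slc51a exceeded the median on 2 arrays only, and Slco1a1, Atp7b and Scarb1 on 3. Changes of such dim probes are compressed.

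Of 10 tested transcription factors that are known to regulate hepatic ABC genes, 3 rose at 2 hours and 0 fell by limma, against 1.76% and 1.06% of all genes. Nr5a2, a nuclear receptor of bile acid and sterol genes, rose by 0.90, Nfe2l2, the activator of antioxidant genes, by 0.65, and Srebf2, the activator of cholesterol synthesis, by 0.51. Nr5a2 had 236 and 224 in untreated cells, 436 and 421 at 2 hours, and 251 and 243 at 2 days. Its 2 hour arrays stood above all others.

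At 2 days 4 of these factors fell and 0 rose by limma, against 5.92% and 6.74% of all genes. Nr1i2, the xenobiotic receptor PXR, fell by 0.91 and Hnf4a by 0.82. Nr1h4, the bile acid receptor FXR, fell by 0.53 and Rxra, its dimer partner, by 0.42. Among 4 tested peptide loading genes (Tap1, Tap2, Tapbp and Tapbpl), limma called 3 higher and 0 lower at 2 days. At 2 hours it called 1 higher and 0 lower. Over all genes 6.74% were higher at 2 days and 1.76% at 2 hours. Of the ABC genes under other names, Tap2 rose at 2 days (0.38, adjusted p = 0.0115 by limma), Tap1 gave 0.28 and was not called, and Cftr did not pass the filter. The gene of the Tap-binding protein, Tapbp (0.99), and the related gene Tapbpl (0.36) rose at 2 days, and Tapbpl also at 2 hours (0.65). Against 2 hours, 8 of the 10 factors were lower at 2 days and 0 higher by limma, against 6.67% and 8.63% of all genes. Among the 8 were Nr5a2 (-0.80), Nfe2l2 (-0.41) and Srebf2 (-0.43), which had risen at 2 hours. At 2 days against untreated cells these gave 0.10, 0.24 and 0.07 and were not called. Whether these changes bear on the ABC genes was not tested.

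**Figure D3:**
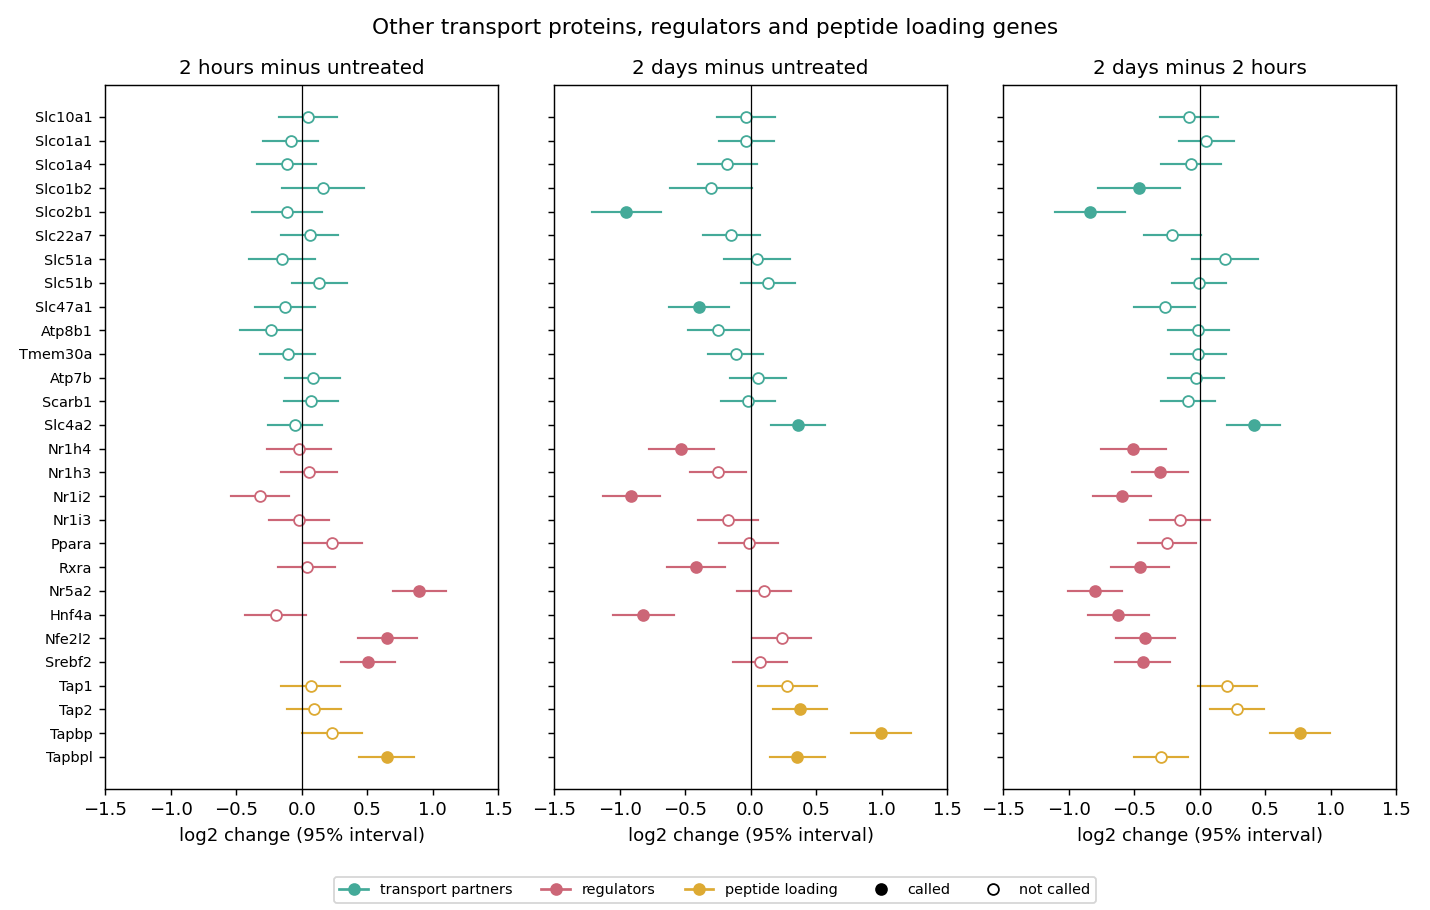
Log2 changes with 95% intervals from limma (horizontal axis, log2 scale) of 14 other transport genes, 10 regulators and 4 peptide loading genes, for 2 hours minus untreated, 2 days minus untreated and 2 days minus 2 hours. Filled points were called. Nr5a2, Nfe2l2 and Srebf2 lie to the right at 2 hours, and Nr1i2, Hnf4a, Nr1h4 and Rxra to the left at 2 days.

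The probes of a gene did not always move alike. Among tested members 21 had over 1 passing probe, with 35 other probes in all. Of these other probes limma called 0 at 2 hours (1 at an unadjusted p under 0.05) and 2 at 2 days, those of Abcc2 and Abcd3. Of the 11 members called in any comparison 5 had other probes, and for Abca5, Abca8b and Abcc5 none of those was called. The others, including Abcc4, Abcg5, Abcb4, Abcb11 and Abcb1b, rest on 1 passing probe each.

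**Figure D4:**
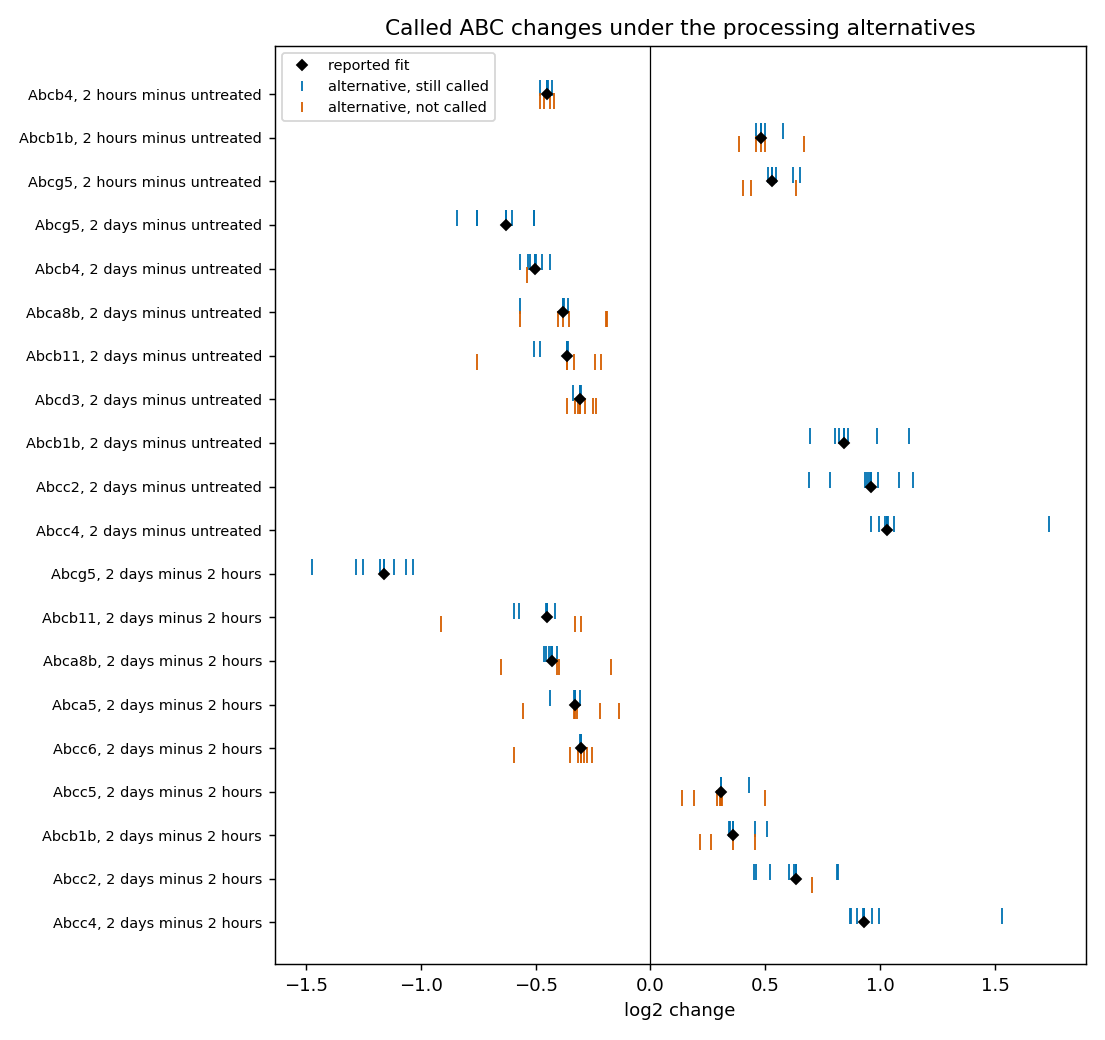
Log2 change (horizontal axis) of each called ABC difference in the reported fit (diamonds) and under 16 alternatives (ticks), blue where still called and orange where not. All ticks keep the sign of the reported value, and Abcc4, Abcc2, Abcb1b and Abcg5 at 2 days against untreated stay called under every alternative shown. Other probes read on their own, some of which turned the sign, are not drawn.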

How the data were processed

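The deposited table holds 1 linear intensity per probe and array for 45281 probes. The sources used here name no scanning or normalization software. All deposited intensity columns share 1 distribution (sorted columns differ by at most 0.332% at any rank), as after quantile normalization, and no detection p-values were used. Per the labels, biotinylated cRNA was hybridised.

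Probes were named by the platform's table, where 34885 had 1 gene symbol, 18 several and 10378 were unlisted. Symbols were updated by entrez identifier with a RefSeq table (GRCm38.p6) for 34807 probes. No label names a genome build, so that table served for names and neighbours. A probe passed if at least 2 arrays exceeded their 50th percentile, and each gene took its brightest passing probe. The log2 values were fitted with limma 3.58.1 in R 4.3.3, with a mean per group over 6 arrays (residual degrees of freedom 3, prior 21.22), so the spread behind a p-value was mostly shared over genes. The number of arrays limits precision.

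The members, lists, tests and the naming rule were chosen with earlier results of these data known. The rule named every tested canalicular and basolateral member and every other called member, 14 in all. Simulated data for the 2 hour comparison had 13438 genes, 200 of them changed, in 10 runs. The fit recovered 92.6% of changes of 0.5 and 100% of 1, with 5.1% false among calls. The noise was independent between arrays and drawn from the fit's own variances, so the false share followed from how the data were made. Changes were added on the log2 scale, without compression by background. The runs check the code and do not show how reliable the calls on these arrays are. Alternatives covered scaling, background, filter, probes, variances, samples, block, thresholds and leaving out arrays.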

Additional observations from a re-analysis of the deposited data

Results flagged for a closer look

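In all 9 members differed between 2 days and 2 hours by the test of that difference (limma, adjusted over all genes). That difference takes in longer culture as well as longer TNFα, which cannot be told apart here. The differences, 2 days minus 2 hours, were 0.93 for Abcc4, 0.63 for Abcc2, 0.36 for Abcb1b and 0.31 for Abcc5. They were -1.16 for Abcg5, -0.45 for Abcb11, -0.43 for Abca8b, -0.33 for Abca5 and -0.30 for Abcc6. Abcg5 was called in opposite directions at the 2 times against untreated cells (0.53 and -0.63). Abcc5 (adjusted p = 0.0499 by limma) and Abcc6 (adjusted p = 0.0483 by limma) lie at the threshold, and leaving out single arrays ended their calls, any of 3 of the 4 arrays for Abcc5 and any of the 4 for Abcc6. Counting every alternative, Abcc5 lost its call under 11 of 16, among them median centring, cyclic loess, no filter, averaged probes and trended variances, and Abcc6 under 8 of 16, among them the replicate block and an offset of 16 before log2. In the fit of every probe on its own both missed the threshold (adjusted p = 0.0565 for Abcc5 and 0.0541 for Abcc6 by limma). With 2 arrays a group, no test of a sample far from its group was made.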

How the results depend on the processing

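With 2 arrays a group, limits come from array number and from background in the intensities. At 2 hours 3 members were called, with 0 after normexp and 0 to 2 without 1 array. At 2 days 8 were called, with 4 after normexp, 5 when probes of a gene were averaged, 5 at an adjusted p under 0.01 and 5 to 7 without 1 array. Between the times 9 were called, with 2 after normexp, 5 at an adjusted p under 0.01 and 4 to 7 without 1 array. Of the 4 called without replicate 1 of the 2 day group, 3 were among the 9 and the other was Abcf1. The cause was not tested. All other settings stayed within 1.5 times of these counts. Under 16 alternatives each, Abcc4, Abcc2, Abcb1b and Abcg5 kept their calls at 2 days against untreated (0.96 to 1.73, 0.69 to 1.14, 0.69 to 1.12 and -0.84 to -0.50), as did Abcc4 and Abcg5 between the times. Other probes read on their own turned the sign for Abca8b at 2 days (0.0376 against untreated and 0.0383 against 2 hours), Abca5 (0.0548) and Abcc5 (-0.032) between the times, none of them called. With the replicate block 3, 7 and 8 members were called at 2 hours, at 2 days and between the times. The replicate deviations correlated at -0.15, -0.08 and 0.04 between groups. The labels do not say whether arrays with the same replicate number share a preparation, and these correlations cannot show it.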
